A study of Rattus norvegicus with 18 samples.

Results

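The tongue of the normal rat is lined by oral epithelia that rest on a connective tissue with submucosal fibroblasts, and RNA of these 2 layers was compared. The comparison takes in 6 of the 18 samples of the series, 3 of normal epithelia and 3 of normal fibroblasts, chosen by their titles and by no measured value. Both groups came from male Sprague Dawley rats that drank distilled water only, and neither the labels nor the methods state their age. The other 12 samples are epithelia and fibroblasts of dysplasia and of squamous cell carcinoma (SCC), from rats whose water held the carcinogen 4-nitroquinoline-1-oxide (4NQO) at 0.002%, and they serve only to set the normal layers beside the diseased ones. Each sample is stated to pool tissue of 3 rats, so the spread given here is between pools.

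The layers were also prepared in different ways. Tongue was soaked in cold dispase II overnight, which loosens the epithelial sheet so that it can be lifted off and frozen. The tissue left below was minced and digested with warm collagenase IV, the cells were plated briefly, and those that stuck to the dish were collected as fibroblasts. No surface marker was used in the selection, and the study checked the separated cells by staining for E-cadherin, keratins and vimentin. Layer and preparation therefore cannot be told apart in any difference below, and in such bulk samples fewer cells of a type and less RNA per cell cannot be told apart either.

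Stratified squamous epithelium renews itself from a basal row of dividing keratinocytes that hold on to the basement membrane through hemidesmosomes. Cells that leave this row change their keratins, add desmosomes and tight junctions, and end as flattened cells with a cross-linked protein envelope and a lipid barrier. Fibroblasts below build the matrix of collagen, elastic fibres and proteoglycans and remodel it with proteases. The layers exchange signals: fibroblast growth factors such as keratinocyte growth factor act on receptors of the epithelium, and ligands of the epithelium, such as those of the hedgehog and platelet-derived growth factor families, act on the mesenchyme.

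Signal is given as log2 of the probe set signal of an Affymetrix rat array, so that a difference of 1 is a 2-fold difference in signal. A log2 difference is epithelia minus fibroblasts, with its standard error (SE), and a gene is called at an adjusted p from limma under 0.05 over all 31042 probe sets. With 3 samples a group, the layers differed at 18763 probe sets, 60.4% of those tested. With the brightest probe set of each of 14217 genes, 33.3% of genes were called higher in epithelia and 29.7% lower, and a call with a difference of at least 4-fold was met by 675 genes higher (4.75%) and 1464 genes lower (10.3%). The median log2 difference over all genes was 0.10. These shares are the background for each list of genes below, and a list near them does not stand out. All lists are of textbook gene families and pathways, but lists and members were chosen with earlier results of these data known.

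Each group was checked against the markers of its label. The 18 measured markers of stratified epithelial cells had a mean signal of 13.11, 12.99 and 13.03 in epithelia 1 to 3, against 12.17, 12.17 and 10.18 in fibroblasts 1 to 3. The 19 fibroblast markers had a mean of 6.01, 7.49 and 6.01 in epithelia, against 12.39, 12.23 and 12.82 in fibroblasts, and all 19 were called lower in epithelia. The epithelia thus carry few fibroblast transcripts, with epithelia 2 above epithelia 1 and 3, whereas the fibroblasts carry their own markers together with many of the epithelium. Fibroblasts 1 and 2 held more epithelial transcripts than fibroblasts 3. Over all samples 12 of the 18 epithelial markers were called higher and 0 lower. With fibroblasts 3 as the lone fibroblast sample, 17 of the 18 were called higher, and without any 1 of the epithelia, 3 of the 18 were.

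Markers of several further cell types lay on the fibroblast side as well. Of 19 macrophage and monocyte markers, 18 were called lower in epithelia, with a mean of 6.10, 6.08 and 6.14 in epithelia, against 11.45, 11.09 and 8.81 in fibroblasts. All 17 endothelial markers were called lower, with a mean of 5.59, 6.36 and 5.55 in epithelia, against 9.60, 10.25 and 11.17 in fibroblasts. Fibroblasts 1 and 2 were thus highest for macrophage markers and fibroblasts 3 for endothelial ones. Of 12 mast cell markers 9 were called lower and 2 higher, of 15 markers of pericytes and smooth muscle 12 lower and 2 higher, of 10 Schwann cell markers 6 lower and 0 higher, and of 10 neutrophil markers 7 lower and 1 higher. Of 11 markers of Langerhans and dendritic cells 7 were called lower, all by at least 4-fold, and 3 higher. Of 4 erythroid markers 2 were called lower and 0 higher. Skeletal muscle markers had no settled direction, with 15 of 26 lower and 4 higher, and 8 lower and 9 higher once the arrays were aligned on the spike-in controls described below. Other lists had more members called higher in epithelia: 5 of 8 markers of B and plasma cells against 1 lower, 4 of 7 of melanocytes against 1 lower, and 6 of 12 of salivary secretory cells against 1 lower. Signals of 2 of these lists were low: the B and plasma cell markers had a mean of 5.73 in epithelia and 5.43 in fibroblasts, and the salivary markers 4.86 and 4.66. Both lists thus lay near or below the 25th percentile of all probe sets. The melanocyte markers lay above it, with a mean of 6.61 in epithelia and 5.85 in fibroblasts. With probe sets dim in all samples left out, 1 of the 8 B and plasma cell markers remained, and it was not called. Salivary amylase (Amy1), at 4.36, 3.80 and 4.39 in epithelia, against 9.97, 11.10 and 4.01 in fibroblasts, was high in fibroblasts 1 and 2 alone and was not called (adjusted p = 0.065). Of 17 T and NK cell markers 7 were called higher and 0 lower, but the defining Cd3e was at 5.47, 5.65 and 5.97 in epithelia, against 5.58, 5.62 and 5.59 in fibroblasts, little above the 25th percentile of all probe sets (5.42 in epithelia and 5.40 in fibroblasts on average), although its other probe set was called higher. A transcript lower in epithelia may therefore belong to fibroblasts or to these other cells of the adherent fraction, and which of them was not tested.

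**Figure D1:**
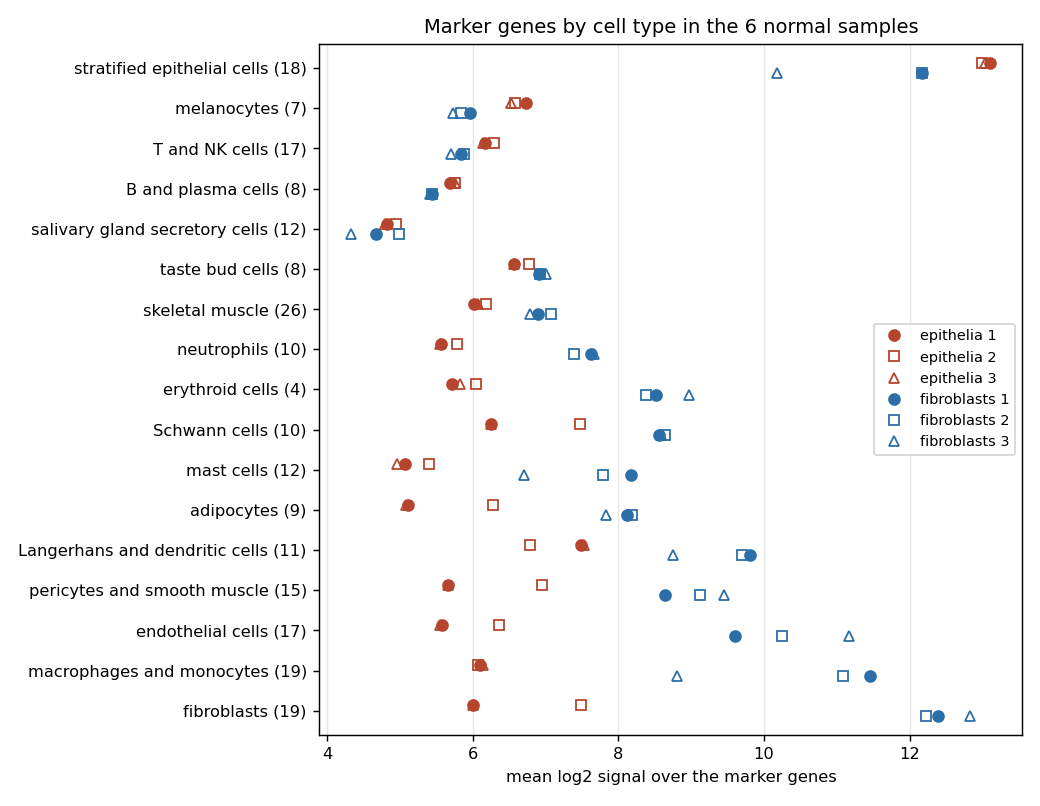
Mean log2 signal over the measured marker genes of each cell type (number in brackets) in the 3 normal epithelia (red, upper) and the 3 normal fibroblasts (blue, lower), 1 point per sample. Fibroblast markers lie at 6.01 to 7.49 in epithelia and 12.23 to 12.82 in fibroblasts, while epithelial markers reach 12.17 in fibroblasts 1 and 2, and 10.18 in fibroblasts 3.

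Arrays of 1 layer correlated at 0.984 to 0.995 among epithelia and 0.961 to 0.992 among fibroblasts over all probe sets, and those of different layers at 0.740 to 0.784. The 3′ probe set of Gapdh exceeded the 5′ one by 0.02 to 0.08 in epithelia and 0.28 to 0.41 in fibroblasts, a measure of RNA integrity that did not overlap between the layers, while for beta-actin the ranges were 1.65 to 1.87 and 1.51 to 2.02 and overlapped. Their part in the differences was not tested. The spike-in controls of the array differed too. Poly-A controls lay at 7.72 to 7.92 in epithelia, against 12.17, 11.67 and 8.31 in fibroblasts 1 to 3. Hybridization controls lay at 11.44 to 11.59 in epithelia, against 12.65, 12.39 and 11.83 in fibroblasts 1 to 3. Both kinds were highest in fibroblasts 1 and 2, which also held more epithelial and macrophage transcripts than fibroblasts 3, and a link was not tested. Aligning the arrays on the hybridization controls adds 0.79 to every log2 difference: 83.9% of called probe sets were then higher in epithelia, against 56.1% with the deposited scaling, and among calls of at least 4-fold 63.3% against 30.7%. A log2 difference between -0.79 and 0 has no settled sign for that reason. The poly-A controls lay further apart, with a mean of 7.81 in epithelia and 10.72 in fibroblasts. No alignment on them was run, so differences below -0.79 were not checked in that way. Of the 2675 probe sets called at least 4-fold lower in epithelia, 1267 had an epithelial mean below the array's 25th percentile. Of the 1186 probe sets called at least 4-fold higher, 258 had a fibroblast mean there. Signals so low hold background, so a fold given against them describes the signals and is no measured ratio of RNA.

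Keratins, which form the intermediate filaments of epithelial cells, were mostly higher in epithelia, with suprabasal and hard keratins furthest apart. Of 20 measured keratins 15 were called higher, 8 by at least 4-fold, and 0 lower. Krt78, a type II keratin of differentiating squamous cells, had a log2 signal of 13.44, 13.50 and 13.42 in epithelia, against 8.05, 7.30 and 6.51 in fibroblasts. The groups lay far apart, by a log2 difference of 6.17 ± 0.35 (SE, adjusted p = 1.39e-05). Krt36, a hard keratin, was at 14.06, 14.14 and 14.03 in epithelia, against 11.36, 8.09 and 7.47 in fibroblasts, with fibroblasts 1 above the other two fibroblast samples and all 3 below the epithelia. Krt10 and Krt1, the suprabasal pair of cornifying epithelium, differed by 4.13 (adjusted p = 5.87e-05) and 3.75 (adjusted p = 0.000617), and Krt71 by 5.13 (adjusted p = 8.64e-05).

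Basal keratins did not separate the layers in this way. Krt5, which marks basal keratinocytes, had a log2 signal of 13.36, 13.28 and 13.25 in epithelia, against 13.55, 13.50 and 12.40 in fibroblasts. Fibroblasts 1 and 2 lay above every epithelial sample and fibroblasts 3 below, for a log2 difference of 0.14 (adjusted p = 0.701). Its partner Krt14 differed by no more than 0.67 (adjusted p = 0.0412), and Krt15, another basal keratin, was at 12.66, 11.22 and 12.29 in epithelia, against 12.47, 12.63 and 10.82 in fibroblasts, with overlapping groups. Krt4 and Krt13, the pair of the noncornifying oral lining, differed by 0.90 (adjusted p = 0.0415) and 1.22 (adjusted p = 0.0474). Krt14, Krt4 and Krt13 were no longer called when any 1 of the epithelia was left out, which in each case left 10 of the 20 keratins called higher. After alignment on the hybridization controls Krt5 was called higher, by 0.93.

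Genes of the cornified envelope and of barrier lipids gave the clearest picture of the epithelium. All 31 measured were called higher in epithelia, 28 by at least 4-fold, with a median log2 difference of 4.74. Corneodesmosin (Cdsn), the glue of the outermost desmosomes, was at 13.42, 13.47 and 13.37 in epithelia, against 7.47, 5.91 and 5.91 in fibroblasts, a 127-fold difference. Loricrin, a main envelope protein, was at 14.13, 14.17 and 14.10 in epithelia, against 11.63, 9.29 and 7.26 in fibroblasts. Fibroblasts 1 held most loricrin signal of the 3 and fibroblasts 3 least, and none reached the epithelia, with a log2 difference of 4.74 ± 0.96 (SE, adjusted p = 0.00469). Involucrin (Ivl), an early envelope scaffold, differed by 5.24 (adjusted p = 1.8e-06), the small proline-rich protein Sprr3 by 5.91 (adjusted p = 0.00121) and Sprr1b by 5.23 (adjusted p = 0.000216). The cross-linking transglutaminases Tgm5 and Tgm1 differed by 6.09 (adjusted p = 3.56e-06) and 5.62 (adjusted p = 0.000155), and the desquamation protease Klk10 by 6.15 (adjusted p = 0.000135).

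Some of these genes share letters in the DNA just upstream of their start. The 250 bases before the start were searched on both strands for the AP-1 motif TGANTCA, the letters that Fos and Jun proteins are known to bind, which read alike on both strands. It was found in 7 of 25 cornified envelope genes with a RefSeq promoter (28.0%), against 6.36% of all 27457 promoters of that length. The share was 4.84% over the measured genes, 10.4% over genes at least 4-fold higher in epithelia and 5.83% over those at least 4-fold lower. The promoters of loricrin, Sprr1b and sciellin (Scel, log2 difference 4.09, adjusted p = 0.00228) are shown because they hold the motif, in capitals, and each runs 5′ to 3′ on the gene's strand in the GRCr8 build, at chr2:180256573-180256822 on the minus strand, chr2:180706356-180706605 on the minus strand and chr15:86754382-86754631 on the plus strand. The match describes these letters and does not show that a factor binds there.
Loricrin: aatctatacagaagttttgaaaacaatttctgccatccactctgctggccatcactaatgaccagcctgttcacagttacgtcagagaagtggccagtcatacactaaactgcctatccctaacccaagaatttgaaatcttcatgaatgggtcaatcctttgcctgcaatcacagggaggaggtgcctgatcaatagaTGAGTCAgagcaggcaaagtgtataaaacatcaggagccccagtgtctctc
Sprr1b: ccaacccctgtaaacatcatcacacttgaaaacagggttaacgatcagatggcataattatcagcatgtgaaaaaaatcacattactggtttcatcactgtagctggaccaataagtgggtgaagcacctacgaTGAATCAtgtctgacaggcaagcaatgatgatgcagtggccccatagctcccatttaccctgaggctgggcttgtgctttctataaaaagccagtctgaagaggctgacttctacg
Scel: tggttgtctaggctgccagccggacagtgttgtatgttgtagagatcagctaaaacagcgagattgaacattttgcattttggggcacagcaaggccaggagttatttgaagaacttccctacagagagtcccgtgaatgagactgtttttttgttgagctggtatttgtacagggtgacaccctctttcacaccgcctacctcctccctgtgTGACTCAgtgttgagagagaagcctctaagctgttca
With the gene's first base as +1, the motif begins at position -51 in loricrin, -116 in Sprr1b and -37 in Scel.

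Cell junctions followed the keratins. Of 25 genes of tight, adherens and gap junctions 20 were called higher in epithelia, 10 by at least 4-fold, and 0 lower. Connexin 30 (Gjb6), a gap junction channel of squamous epithelium, had a log2 signal of 12.52, 12.96 and 12.43 in epithelia, against 5.89, 5.22 and 3.67 in fibroblasts. The signals differ 209-fold, with the fibroblast values around or below the 25th percentile of the array. Its neighbour connexin 26 (Gjb2) differed by 4.75 (adjusted p = 3.61e-05), nectin 4 (Nectin4), an adherens junction molecule, by 4.08 (adjusted p = 0.000321), claudin 1 (Cldn1), a barrier protein, by 3.67 (adjusted p = 4.81e-05), and occludin (Ocln) by 3.21 (adjusted p = 0.000197). E-cadherin (Cdh1), the adherens junction molecule of epithelia, was at 12.83, 12.69 and 12.79 in epithelia, against 11.77, 11.78 and 9.39 in fibroblasts, and its difference of 1.79 (adjusted p = 0.038) was smaller. Of 10 desmosome genes 9 were called higher. Desmocollin 1 (Dsc1) and desmoglein 1 (Dsg1) of the upper layers differed by 5.90 (adjusted p = 7.07e-05) and 4.00 (adjusted p = 0.00261). Desmoplakin (Dsp), found in all layers, differed by 1.19 (adjusted p = 0.0436), but its other, dimmer probe set was called lower, at -0.43 (adjusted p = 0.0394). Cdh1 and Dsp were no longer called when any 1 of the epithelia was left out. Of the 10 desmosome genes 5 were called without epithelia 1 or 2, and 4 without epithelia 3.

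The 6 letters CACCTG, an E-box to which Zeb and Snai repressors are known to bind, were in 8 of 18 junction promoters (44.4%) and in 7 of 13 keratin promoters (53.8%), against 15.6% of all promoters, 27.5% of the promoters of genes at least 4-fold higher in epithelia and 11.9% of those at least 4-fold lower. The promoters of connexin 30, at chr15:35410139-35410388, and occludin, at chr2:33441199-33441448, both on the minus strand of GRCr8, are shown because each holds these letters at 2 places, in capitals (CAGGTG is the same box on the opposite strand).
Gjb6: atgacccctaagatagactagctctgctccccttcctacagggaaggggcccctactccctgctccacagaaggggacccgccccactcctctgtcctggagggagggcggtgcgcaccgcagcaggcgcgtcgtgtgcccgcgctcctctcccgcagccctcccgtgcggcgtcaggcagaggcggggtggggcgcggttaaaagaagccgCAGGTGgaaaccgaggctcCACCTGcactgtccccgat
Ocln: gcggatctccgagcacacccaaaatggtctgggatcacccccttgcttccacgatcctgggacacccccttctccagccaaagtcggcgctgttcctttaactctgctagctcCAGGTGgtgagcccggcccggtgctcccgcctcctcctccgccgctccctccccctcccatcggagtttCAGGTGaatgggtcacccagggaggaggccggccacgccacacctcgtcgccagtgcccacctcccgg
The boxes begin at positions -38 and -19 in connexin 30 and at -137 and -68 in occludin.

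Genes that attach the epithelium to its basement membrane showed small differences, and their direction depended on the scaling. Of 10 genes of the hemidesmosome and of laminin-332, its ligand, 1 was called higher and 3 lower, all by less than 4-fold. Collagen XVII (Col17a1), the hemidesmosome's transmembrane collagen, was at 11.47, 11.10 and 11.41 in epithelia, against 11.39, 11.61 and 9.21 in fibroblasts, and the groups overlapped, with an adjusted p of 0.419. The laminin chain Lamb3 was at 8.86, 8.50 and 8.86 in epithelia, against 8.47, 8.64 and 6.72 in fibroblasts (adjusted p = 0.191), and Lama3, the 1 gene called higher, differed by 1.00 (adjusted p = 0.0429) and was not called without any 1 of the epithelia or without fibroblasts 1. With fibroblasts 3 as the lone fibroblast sample, 4 of the 10 were called higher and 2 lower, and after alignment on the hybridization controls 4 were higher and 0 lower. By contrast, of 21 other basement membrane genes 15 were called lower in epithelia, 10 by at least 4-fold, and 0 higher. Laminin α2 (Lama2), a chain of mesenchymal and muscle basement membranes, was at 4.46, 5.79 and 4.65 in epithelia, against 12.10, 11.87 and 12.46 in fibroblasts, a log2 difference of -7.18 ± 0.36 (SE, adjusted p = 7.75e-06). Collagen IV (Col4a1) differed by -5.84 (adjusted p = 7.2e-05), laminin α4 (Lama4), a vessel wall chain, by -5.42 (adjusted p = 2.07e-05), and laminin γ1 (Lamc1), shared by most laminins, by -3.36 (adjusted p = 2.82e-05). Fibroblasts 3, which also had the highest endothelial markers, had the highest signal for each of these 4 genes.

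**Figure D2:**
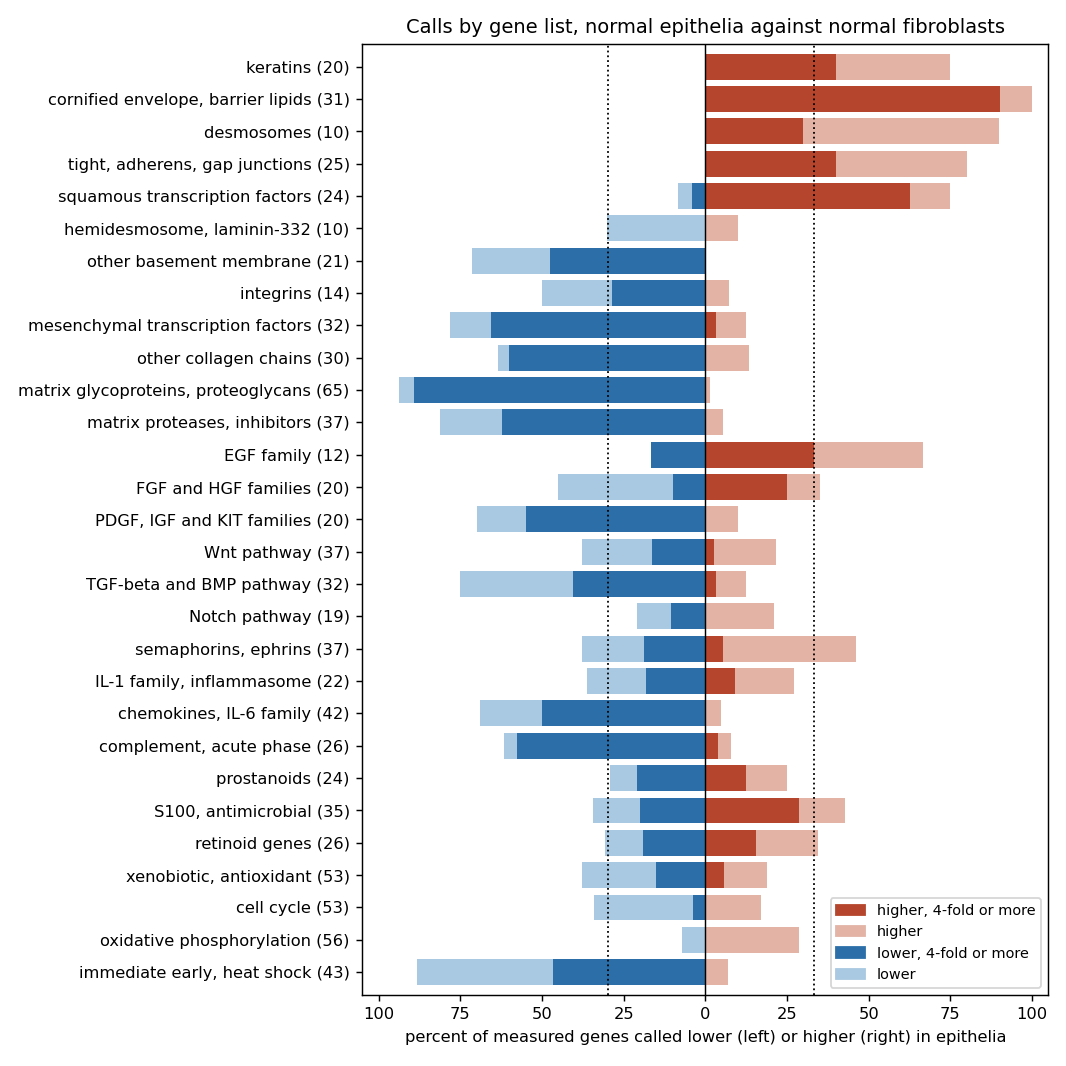
Percent of the measured genes of each list (number in brackets) called higher (red, to the right) or lower (blue, to the left) in normal epithelia relative to normal fibroblasts, with calls of at least 4-fold in the dark colour. Dotted lines mark the shares over all genes, 33.3% higher and 29.7% lower; all 31 cornified envelope genes lie to the right, and the matrix, immediate early and mesenchymal lists lie far to the left.

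Transcription factors divided the layers as well. Of 24 factors of squamous epithelium, including the epithelial splicing factor Esrp1, 18 were called higher, 15 by at least 4-fold, and 2 lower. Grhl1, a grainyhead factor of the barrier programme, was at 12.07, 12.03 and 11.91 in epithelia, against 8.06, 7.94 and 6.19 in fibroblasts, for a log2 difference of 4.61 ± 0.47 (SE, adjusted p = 0.000187). Dlx3 and Msx2, homeobox factors of epidermal and dental epithelium, differed by 4.12 (adjusted p = 0.000111) and 3.70 (adjusted p = 0.000129), and the epithelial ETS factor Ehf by 4.04 (adjusted p = 2.15e-05). Factors of oral identity were higher too: Pax9 by 2.20 (adjusted p = 0.002), Pitx1 by 2.31 (adjusted p = 0.00144) and Sox2 by 2.24 (adjusted p = 0.00319). The master regulator of the basal layer, Tp63, was at 11.88, 11.70 and 11.92 in epithelia, against 11.71, 11.62 and 9.09 in fibroblasts, with an adjusted p of 0.213 and overlapping groups, although its other, dimmer probe set was called higher. Klf4, a factor of terminal differentiation and also an early response gene, had overlapping groups as well (13.36, 13.48 and 13.29 in epithelia, against 13.36, 13.29 and 13.41 in fibroblasts). After alignment on the hybridization controls both were called higher, by 1.81 for Tp63 and 0.81 for Klf4. Barx1, counted on the list as an oral epithelial factor although it is known from oral mesenchyme, was lower, with a difference of -2.57 (adjusted p = 0.00147).

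Of 32 mesenchymal factors 25 were called lower in epithelia, 21 by at least 4-fold, and 4 higher. Twist1, a helix-loop-helix factor of mesenchyme, was at 3.17, 3.88 and 3.56 in epithelia, against 11.52, 11.36 and 11.31 in fibroblasts, and the log2 difference of -7.86 ± 0.19 (SE, adjusted p = 1.51e-06) makes it 232-fold lower in epithelia. The nuclear receptors Nr2f2 and Nr2f1 differed by -7.45 (adjusted p = 0.00108) and -7.18 (adjusted p = 3.72e-05), with Nr2f2 at 7.80 in epithelia 2 and below 4 in the other epithelia. Zeb1 and Zeb2, repressors of epithelial genes, differed by -3.34 (adjusted p = 3.82e-06) and -6.49 (adjusted p = 9.39e-05), and Prrx1, a factor of limb and craniofacial mesenchyme, by -5.50 (adjusted p = 4.48e-05). Foxp2 ran against its list, at 9.87, 9.23 and 9.69 in epithelia, against 6.99, 7.05 and 6.25 in fibroblasts, for a difference of 2.83 ± 0.26 (SE, adjusted p = 0.000119).

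Matrix genes lay almost wholly on the fibroblast side. Of 65 matrix glycoproteins, proteoglycans and cross-linking enzymes 61 were called lower in epithelia, 58 by at least 4-fold, and 1 higher, with a median log2 difference of -4.15. Lumican (Lum), a proteoglycan that spaces collagen fibrils, was at 3.47, 8.67 and 3.57 in epithelia, against 13.84, 13.72 and 13.71 in fibroblasts. Epithelia 2 held far more lumican signal than the other epithelia and still lay below every fibroblast sample, and the difference of -8.52 ± 1.30 (SE, adjusted p = 0.00129) was the largest fall among the brightest probe sets of named genes. Thrombospondin 4 (Thbs4), a matrix glycoprotein of tendon and muscle, was at 5.15, 6.05 and 5.23 in epithelia, against 13.59, 13.40 and 13.69 in fibroblasts, 271-fold lower in epithelia. Periostin (Postn) differed by -7.87 (adjusted p = 2.37e-05), the elastic fibre proteins Mfap4 and Fbn1 by -7.56 (adjusted p = 1.86e-06) and -7.16 (adjusted p = 4.31e-05), and dermatopontin (Dpt) by -8.29 (adjusted p = 7.54e-06). The exception was Ecm1, a matrix protein made by keratinocytes, at 13.17, 12.88 and 13.18 in epithelia, against 12.32, 12.03 and 11.39 in fibroblasts (log2 difference 1.17, adjusted p = 0.00548).

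Collagen chains lay mostly on the fibroblast side. Of 30 chains outside the basement membrane 19 were called lower, 18 by at least 4-fold, and 4 higher, each by less than 2-fold. Col1a2, a chain of fibrillar collagen I, was at 4.42, 8.81 and 4.29 in epithelia, against 13.84, 13.70 and 14.15 in fibroblasts, and the lone high epithelial value was again epithelia 2. Its difference was -8.06 ± 1.13 (SE, adjusted p = 0.000881). Col3a1 was at 5.73, 10.56 and 5.45 in epithelia, against 14.03, 13.91 and 14.27 in fibroblasts, and Col14a1, a collagen on fibril surfaces, differed by -7.22 (adjusted p = 5.2e-05).

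Of 37 matrix proteases and their inhibitors 30 were called lower, 23 by at least 4-fold, and 2 higher. Stromelysin 1 (Mmp3) was at 3.99, 4.56 and 4.74 in epithelia, against 12.06, 11.88 and 10.41 in fibroblasts, with a difference of -7.01 ± 0.44 (SE, adjusted p = 2.12e-05). The secreted inhibitors Serping1, which blocks complement C1, and Serpinf1 (pigment epithelium-derived factor) differed by -8.23 (adjusted p = 8.66e-05) and -7.29 (adjusted p = 1.05e-05), and Adamts1, which cuts proteoglycans, by -6.67 (adjusted p = 1.45e-06). Gelatinase A (Mmp2) differed by -6.16 (adjusted p = 2.87e-06), although its other probe set was not in accord. Macrophage elastase (Mmp12), at 6.19, 6.44 and 6.25 in epithelia, against 12.75, 12.53 and 8.50 in fibroblasts, was highest in fibroblasts 1 and 2, the samples with most macrophage markers. Among 14 integrin subunits 7 were called lower and 1 higher: the collagen-binding Itga1 and Itga11 differed by -4.94 (adjusted p = 8.75e-06) and -3.65 (adjusted p = 1.3e-05), and the epithelial Itgb6, which activates TGF-β, by 1.46 (adjusted p = 0.000639).

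**Figure D3:**
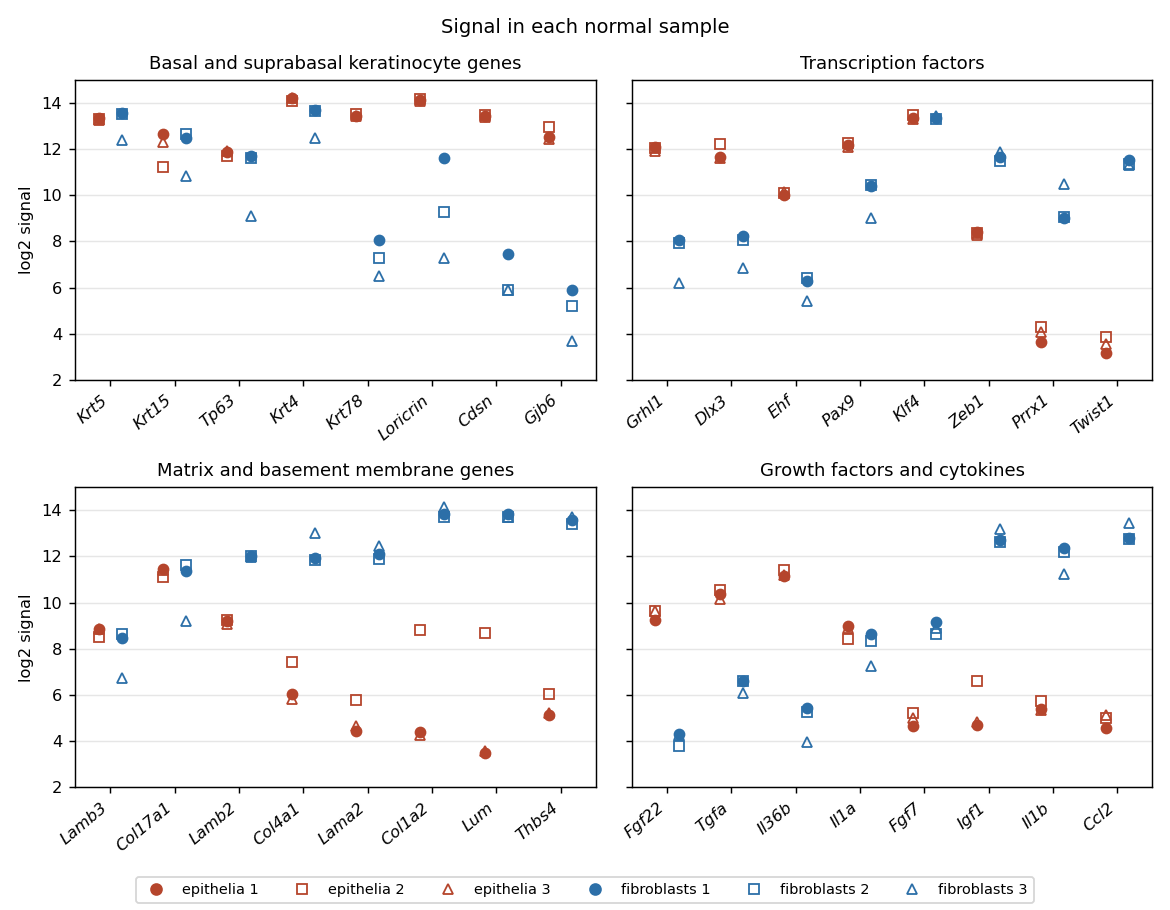
Log2 signal of 32 genes in the 3 normal epithelia (red, left of each gene) and the 3 normal fibroblasts (blue, right), 1 point per sample. Krt5, Krt15, Tp63, Lamb3, Col17a1, Il1a and Klf4 have overlapping groups, whereas Cdsn, Gjb6, Twist1, Thbs4 and Ccl2 lie 6.99 to 8.11 apart on average, and the open red squares of Lum and Col1a2 show epithelia 2 above the other epithelia.

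Growth factor families had their parts in different layers. In the EGF family, whose ligands drive keratinocyte growth, 8 of 12 genes were called higher in epithelia and 2 lower. The ligand Tgfa was at 10.36, 10.56 and 10.17 in epithelia, against 6.59, 6.62 and 6.11 in fibroblasts, with a log2 difference of 3.92 ± 0.18 (SE, adjusted p = 5.92e-06). Neuregulin 1 (Nrg1) and epiregulin (Ereg) differed by 2.61 (adjusted p = 6.44e-05) and 2.35 (adjusted p = 0.0014), with 2 of 7 other probe sets of Nrg1 not in accord, and the receptors Erbb2 and Egfr by 2.06 (adjusted p = 0.000399) and 0.53 (adjusted p = 0.00974). The ligand Hbegf, also an early response gene, ran the other way, at 6.90, 6.84 and 6.95 in epithelia, against 10.46, 10.70 and 11.27 in fibroblasts (log2 difference -3.91, adjusted p = 1.1e-05).

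Among 20 genes of the FGF and HGF families 7 were called higher and 9 lower, and after alignment on the hybridization controls 9 higher and 2 lower. The ligand Fgf22 was at 9.25, 9.62 and 9.65 in epithelia, against 4.31, 3.80 and 4.28 in fibroblasts, a 41.5-fold difference and the largest rise of the family. Fgfbp1, a secreted carrier that frees FGF from the matrix, differed by 3.76 (adjusted p = 0.00203). Keratinocyte growth factor (Fgf7) was at 4.67, 5.22 and 5.02 in epithelia, against 9.15, 8.63 and 8.91 in fibroblasts, for a difference of -3.93 ± 0.20 (SE, adjusted p = 8.18e-06), and Fgf10, which shares its receptor, differed by -1.42 (adjusted p = 0.00112), a call lost after that alignment. That receptor gene, Fgfr2, was at 10.26, 10.23 and 10.21 in epithelia, against 10.28, 10.36 and 8.81 in fibroblasts, with overlapping groups and an adjusted p of 0.386. Of its 4 other, dimmer probe sets 2 were called higher. Fgfr3 was higher by 1.79 (adjusted p = 0.009) and Fgfr1 lower, with a difference of -5.81 (adjusted p = 4.44e-06). The serine protease matriptase (St14) and its inhibitor Spint1, which govern HGF activation at epithelial surfaces, differed by 2.78 (adjusted p = 0.00358) and 4.02 (adjusted p = 0.000537).

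The PDGF, IGF and KIT families lay mostly on the fibroblast side, with 14 of 20 genes called lower in epithelia and 2 higher, or 12 lower and 6 higher after alignment on the hybridization controls. Igf1 was at 4.72, 6.61 and 4.82 in epithelia, against 12.73, 12.62 and 13.20 in fibroblasts, for a log2 difference of -7.47 ± 0.49 (SE, adjusted p = 2.59e-05). Pdgfra, the receptor that marks fibroblasts, differed by -7.16 (adjusted p = 1.8e-06), and Pdgfa, its ligand, by -1.97 (adjusted p = 0.000657). Stem cell factor (Kitlg) differed by -4.69 (adjusted p = 7.26e-06), with 1 of its 3 other probe sets not in accord, and the IGF carrier Igfbp4 by -6.34 (adjusted p = 7.68e-05). The highest rise was Pdgfd, at 6.99, 7.30 and 6.78 in epithelia, against 5.66, 5.13 and 5.24 in fibroblasts (log2 difference 1.68, adjusted p = 0.00037).

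Wnt genes had no settled direction as a group, with 8 of 37 called higher and 14 lower, and 19 higher and 7 lower after alignment on the hybridization controls. The ligand Wnt4 was at 11.12, 11.18 and 11.19 in epithelia, against 9.38, 9.48 and 7.67 in fibroblasts, with a difference of 2.33 ± 0.46 (SE, adjusted p = 0.00413), whereas Wnt10a, at 9.65, 9.53 and 9.62 in epithelia, against 8.85, 8.98 and 6.77 in fibroblasts, did not pass (adjusted p = 0.0631). Secreted inhibitors lay below: Wif1 was at 7.78, 8.16 and 7.31 in epithelia, against 12.39, 12.28 and 12.40 in fibroblasts (log2 difference -4.61, adjusted p = 6.02e-06), and Dkk2 and Sfrp4 differed by -2.70 (adjusted p = 3.02e-05) and -3.85 (adjusted p = 0.000239), with the other probe set of Sfrp4 not in accord. The R-spondin receptor Lgr5 differed by -4.86 (adjusted p = 2.55e-06). Axin2, a target gene that reads out canonical signalling, was at 8.40, 9.21 and 8.06 in epithelia, against 8.43, 8.17 and 8.16 in fibroblasts (adjusted p = 0.389).

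In the TGF-β and BMP pathway 24 of 32 genes were called lower in epithelia, 13 by at least 4-fold, and 4 higher. Gremlin 1 (Grem1), a BMP antagonist, was at 3.11, 3.72 and 3.03 in epithelia, against 10.38, 9.78 and 10.22 in fibroblasts, with a difference of -6.84 ± 0.24 (SE, adjusted p = 2.34e-06). The ligands Gdf10, Bmp5 and Tgfb3 differed by -7.27 (adjusted p = 1.94e-06), -5.83 (adjusted p = 1.51e-06) and -3.49 (adjusted p = 8.47e-06). Tgfb2 has no settled direction: its brightest probe set differed by -4.27 (adjusted p = 3.82e-06), but its other probe set was called higher, by 1.80 (adjusted p = 4.9e-05). Acvrl1, a receptor of endothelial cells, differed by -6.14 (adjusted p = 1.26e-05) and was highest in fibroblasts 3. Bambi, a decoy receptor, ran the other way at 11.48, 12.33 and 11.33 in epithelia, against 9.24, 9.35 and 9.49 in fibroblasts (log2 difference 2.35, adjusted p = 0.000291), and so did the ligand Bmp7 by 1.02 (adjusted p = 0.0181), a call lost without epithelia 1 or epithelia 2.

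Hedgehog and Notch genes had few calls of at least 4-fold, and guidance genes lay on both sides. Sonic hedgehog (Shh), a ligand of lingual epithelium, was at 6.16, 6.14 and 6.03 in epithelia, against 4.55, 5.07 and 5.40 in fibroblasts, a small difference of 1.10 (adjusted p = 0.00422) at low signal, and the co-receptor Boc differed by -3.28 (adjusted p = 4.38e-06). Of 19 Notch genes 4 were called in each direction, and 8 higher and 2 lower after alignment on the hybridization controls: the receptor Notch2 was higher by 1.47 (adjusted p = 0.000215), and the target Hey1, which endothelial cells also use, lower, with a difference of -4.65 (adjusted p = 0.000141). Of 37 semaphorins, ephrins and their receptors 17 were called higher and 14 lower. The Eph receptor Ephb6 was at 10.25, 11.06 and 10.05 in epithelia, against 6.80, 6.74 and 5.55 in fibroblasts (log2 difference 4.09, adjusted p = 0.000152), whereas neuropilin 1 (Nrp1) and plexin D1 (Plxnd1), semaphorin receptors known from vessels, were lower, with a difference of -5.70 (adjusted p = 3.52e-05) and -4.62 (adjusted p = 2.73e-06).

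**Figure D4:**
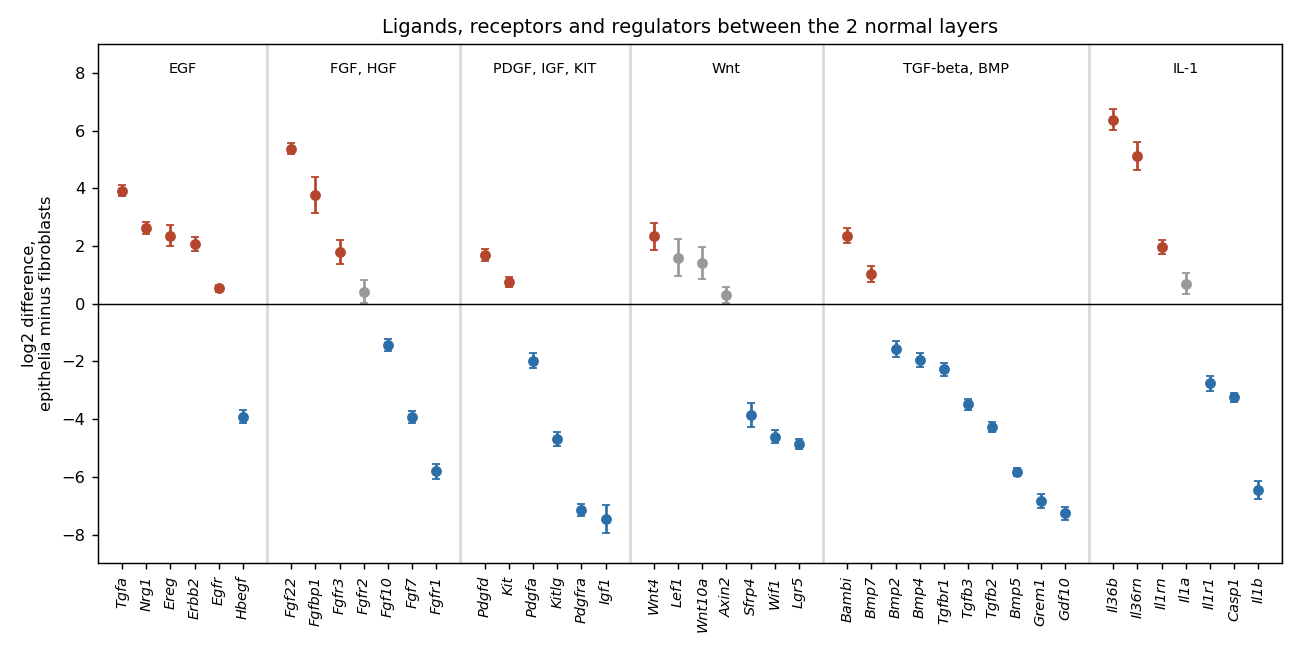
Log2 difference (epithelia minus fibroblasts, 3 samples each) of ligands, receptors and regulators of 6 signalling families, with bars for the standard error. Red points were called higher in epithelia, blue points lower, grey points were not called; Fgf22 and Il36b lie highest, at 5.37 and 6.38, and Igf1 lowest, at -7.47.

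The IL-1 family, whose members start inflammation, had 6 of 22 genes called higher and 8 lower, near the background, and 11 higher and 4 lower after alignment on the hybridization controls, so it showed no direction as a family. IL-36β (Il36b) was at 11.16, 11.41 and 11.21 in epithelia, against 5.43, 5.25 and 3.97 in fibroblasts, with a log2 difference of 6.38 ± 0.37 (SE, adjusted p = 1.42e-05), and the IL-36 receptor antagonist (Il36rn) differed by 5.11 (adjusted p = 0.00014). The antagonist Il1rn was at 8.17, 8.39 and 8.41 in epithelia, against 6.66, 6.59 and 5.82 in fibroblasts, a difference of 1.96 (adjusted p = 0.000423). IL-1α (Il1a), known as a store of keratinocytes, was at 9.01, 8.42 and 8.89 in epithelia, against 8.65, 8.34 and 7.25 in fibroblasts, and its groups overlapped (adjusted p = 0.137). IL-1β (Il1b) was at 5.38, 5.73 and 5.35 in epithelia, against 12.38, 12.20 and 11.22 in fibroblasts, an 87.4-fold lower signal in epithelia, with a log2 difference of -6.45 ± 0.31 (SE, adjusted p = 6.4e-06). The 3 fibroblast samples all lay above 11, and fibroblasts 3, the sample with the lowest macrophage markers, was the lowest of them. Its processing enzyme Casp1 differed by -3.25 (adjusted p = 6.06e-06). The receptor Il1r1 differed by -2.75 (adjusted p = 0.000129), but both of its other probe sets were not in accord. Of these, 1 was called higher, by 0.58 (adjusted p = 0.00426), and the other was not called.

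Chemokines and the IL-6 family lay on the fibroblast side, with 29 of 42 genes called lower in epithelia, 21 by at least 4-fold, and 2 higher. Ccl2, which draws monocytes, was at 4.59, 4.99 and 5.12 in epithelia, against 12.81, 12.75 and 13.46 in fibroblasts, a 275-fold lower signal in epithelia. Il6 was at 4.16, 4.51 and 4.15 in epithelia, against 11.52, 11.82 and 12.75 in fibroblasts, for a log2 difference of -7.76 ± 0.31 (SE, adjusted p = 3.56e-06). The neutrophil chemokines Cxcl1 and Cxcl2 differed by -7.37 (adjusted p = 1.56e-06) and -7.76 (adjusted p = 4.06e-06), Cxcl10 by -6.25 (adjusted p = 8.41e-06), the eosinophil chemokine Ccl11 by -6.18 (adjusted p = 5.06e-06), and Cxcl12, a steady product of stroma, by -3.83 (adjusted p = 9.54e-06). Cxcl13, a B cell chemokine, was at 4.40, 4.33 and 4.02 in epithelia, against 11.68, 11.53 and 8.26 in fibroblasts, and was higher in fibroblasts 1 and 2 than in fibroblasts 3, as the macrophage markers were, whereas Ccl2 and Il6 were highest in fibroblasts 3.

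The NF-κB motif was searched as GGG, any 2 bases and then TTTCC on either strand. It was in 5 of 31 promoters of this list (16.1%), against 1.28% of all promoters. The share was 2.42% over genes at least 4-fold lower in epithelia and 2.04% over those at least 4-fold higher. The motif is not particular to this list: it was in 2 of 13 keratin promoters (15.4%), a list on the epithelial side. It was also in 3 of 33 immediate early and heat shock promoters (9.09%), and in no promoter of the other lists searched. The promoters of Cxcl1, at chr14:17479322-17479571, Cxcl2, at chr14:17467256-17467505, and Il6, at chr4:5894576-5894825, all lie on the minus strand of GRCr8. They are shown with the motif in capitals, because these 3 genes were among the largest falls of the list.
Cxcl1: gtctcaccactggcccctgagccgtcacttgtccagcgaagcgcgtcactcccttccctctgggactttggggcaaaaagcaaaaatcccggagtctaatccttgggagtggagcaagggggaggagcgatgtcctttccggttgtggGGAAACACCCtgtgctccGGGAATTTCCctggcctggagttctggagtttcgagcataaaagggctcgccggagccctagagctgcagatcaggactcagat
Cxcl2: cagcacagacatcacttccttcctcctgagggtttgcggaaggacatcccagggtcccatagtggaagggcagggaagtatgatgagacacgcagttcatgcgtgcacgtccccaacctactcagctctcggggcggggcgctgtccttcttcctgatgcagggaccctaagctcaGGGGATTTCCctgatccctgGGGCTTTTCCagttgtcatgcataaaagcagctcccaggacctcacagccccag
Il6: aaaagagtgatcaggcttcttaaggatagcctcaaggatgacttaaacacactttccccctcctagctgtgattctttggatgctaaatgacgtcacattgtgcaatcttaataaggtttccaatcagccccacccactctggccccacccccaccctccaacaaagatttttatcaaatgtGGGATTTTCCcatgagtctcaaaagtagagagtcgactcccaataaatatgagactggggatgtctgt
Cxcl1 and Cxcl2 hold the motif at 2 places each, beginning at positions -102 and -84 in Cxcl1 and -74 and -54 in Cxcl2, and Il6 at 1 place, at -68.

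Complement genes were lower in epithelia in 16 of 26 cases, 15 by at least 4-fold, and higher in 2. C1s, a starting protease of the classical pathway, was at 5.56, 7.77 and 5.44 in epithelia, against 13.41, 13.28 and 13.20 in fibroblasts, with a difference of -7.04 ± 0.58 (SE, adjusted p = 7.03e-05), and its partner C1r differed by -6.11 (adjusted p = 1.19e-05). Masp1 of the lectin pathway differed by -7.34 (adjusted p = 3.84e-06), but 1 of its 2 other probe sets was called higher, by 0.68 (adjusted p = 0.00486). The collectin Colec12 differed by -7.57 (adjusted p = 2.55e-06). The central component C3 differed by -1.84 (adjusted p = 4.65e-05).

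Of 24 prostanoid and eicosanoid genes 6 were called higher and 7 lower, near the background, and 11 higher and 6 lower after alignment on the hybridization controls. The lipoxygenase Alox12 was at 10.75, 10.97 and 10.97 in epithelia, against 5.72, 5.87 and 5.15 in fibroblasts, with a difference of 5.31 ± 0.21 (SE, adjusted p = 3.2e-06), and the phospholipase Pla2g4b differed by 4.33 (adjusted p = 2.46e-06). Cyclooxygenase 2 (Ptgs2), which makes prostaglandins in inflammation, was at 5.61, 4.80 and 6.26 in epithelia, against 11.03, 10.91 and 11.52 in fibroblasts, with a difference of -5.60 ± 0.37 (SE, adjusted p = 2.44e-05). Prostacyclin synthase (Ptgis) differed by -4.21 (adjusted p = 3.22e-06), and the prostaglandin E2 receptor Ptger3 was higher by 1.83 (adjusted p = 0.000466).

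Antimicrobial genes were among the largest differences on the epithelial side. The psoriasin relative S100a7l2, a calcium-binding S100 protein, had a log2 signal of 13.51, 13.84 and 13.44 in epithelia, against 7.56, 5.68 and 3.40 in fibroblasts, and its log2 difference of 8.05 ± 0.92 (SE, adjusted p = 0.000327) was the largest rise among the brightest probe sets of named genes. The β-defensin Defb4 was at 13.91, 13.97 and 13.90 in epithelia, against 9.60, 5.59 and 3.94 in fibroblasts. Its fibroblast values spread widely, all below the epithelia. Defb1, at 11.30, 11.14 and 11.49 in epithelia, against 5.03, 4.72 and 4.04 in fibroblasts, showed no such spread and differed by 6.72 ± 0.26 (SE, adjusted p = 3.09e-06). Of 35 genes of this kind 15 were called higher and 12 lower. S100 genes stood on both sides: S100a3 was higher by 2.49 (adjusted p = 0.000295), and S100a4, known as fibroblast-specific protein, was at 8.17, 8.06 and 8.32 in epithelia, against 13.20, 13.12 and 13.13 in fibroblasts (log2 difference -4.97, adjusted p = 1.51e-06). S100a9, a calgranulin of neutrophils, was at 5.39, 6.45 and 5.30 in epithelia, against 12.05, 11.89 and 12.57 in fibroblasts (log2 difference -6.46, adjusted p = 9.5e-06), and S100b, known from Schwann cells, was lower, with a difference of -7.01 (adjusted p = 0.000245).

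Retinoid genes, which carry and convert vitamin A, had 9 of 26 called higher and 8 lower, shares at the background of all genes. Single members lay far apart. The binding protein Rbp2 was at 11.13, 11.74 and 11.40 in epithelia, against 6.10, 5.76 and 4.79 in fibroblasts, with a difference of 5.87 ± 0.34 (SE, adjusted p = 1.48e-05), and the dehydrogenase Rdh12 and the carrier Crabp2 differed by 4.03 (adjusted p = 2.2e-05) and 2.42 (adjusted p = 0.000168). Aldh1a2, which makes retinoic acid, was at 5.55, 5.49 and 5.14 in epithelia, against 10.18, 9.81 and 10.00 in fibroblasts (log2 difference -4.60, adjusted p = 2.48e-06), and the carrier Crabp1 and the receptor Rarb were lower, with a difference of -3.65 (adjusted p = 0.000131) and -2.42 (adjusted p = 0.000143).

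Enzymes that handle foreign compounds were found in both layers. Of 53 such genes 10 were called higher and 20 lower, and with arrays aligned on the hybridization controls 23 were higher and 9 lower. The monooxygenases were divided: Fmo2 was at 12.09, 12.26 and 11.96 in epithelia, against 7.37, 7.82 and 6.42 in fibroblasts (log2 difference 4.90, adjusted p = 2.93e-05), and Fmo1 at 4.31, 5.19 and 4.07 in epithelia, against 11.14, 11.03 and 10.39 in fibroblasts (log2 difference -6.33, adjusted p = 9.61e-06). Cyp2s1, an epithelial cytochrome P450, was higher by 3.66 (adjusted p = 8.87e-05) and the quinone reductase Nqo1 by 1.80 (adjusted p = 0.0109). The extracellular superoxide dismutase Sod3 was lower, with a difference of -6.32 (adjusted p = 4.08e-06) and the glutathione transferase Gsta1 by -5.62 (adjusted p = 2.2e-05).

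Cell cycle and glycolysis genes gave no settled direction as groups. Oxidative phosphorylation genes had more calls higher than lower under both scalings, though 36 of 56 were not called with the deposited one. Of 53 cell cycle genes 9 were called higher and 18 lower, and after alignment on the hybridization controls 22 and 2, so no direction is settled. The largest was Cdkn1c, an inhibitor of cyclin-dependent kinases, at 7.13, 7.40 and 7.01 in epithelia, against 11.53, 11.36 and 12.71 in fibroblasts (log2 difference -4.68, adjusted p = 4.3e-05). Of 56 oxidative phosphorylation genes 16 were called higher and 4 lower, and 40 higher and 1 lower after that alignment, and the differences ran between -1.91 and 1.10. Among 26 glycolysis genes 6 were called higher and 7 lower, and 14 higher and 5 lower after the alignment, with 1 at least 4-fold higher and 4 at least 4-fold lower. The oxygen sensor Egln3 was higher by 3.22 (adjusted p = 4.43e-05), and the neuronal enolase Eno2 and the glucose transporter Slc2a3 were lower, with a difference of -4.71 (adjusted p = 2.37e-06) and -3.48 (adjusted p = 0.000145), with the other probe set of Slc2a3 not in accord.

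Immediate early and heat shock genes, which cells switch on within minutes of handling or stress, were nearly all lower in epithelia: 38 of 43 were called lower, 20 by at least 4-fold, and 3 higher. Fos, part of AP-1, was at 8.74, 10.38 and 9.23 in epithelia, against 13.90, 13.82 and 13.66 in fibroblasts, and its other probe set was not in accord. Fosb was at 6.64, 7.20 and 7.13 in epithelia, against 13.43, 13.39 and 13.24 in fibroblasts, a log2 difference of -6.36 ± 0.18 (SE, adjusted p = 1.7e-06). Atf3, a stress factor, was at 7.65, 6.69 and 8.09 in epithelia, against 13.42, 13.41 and 13.25 in fibroblasts (log2 difference -5.88, adjusted p = 1.28e-05), the orphan receptor Nr4a3 differed by -6.15 (adjusted p = 8.85e-06), Egr2 by -5.99 (adjusted p = 1.51e-06), with its other probe set not in accord, and Tnfaip3, which NF-κB induces as its own brake, by -6.06 (adjusted p = 1.56e-06). Klf2, a factor of early response and of endothelium, differed by -7.08 (adjusted p = 1.45e-06), with 2 of its 4 other probe sets not in accord. Of these 2, 1 was called higher, by 0.88 (adjusted p = 0.0038), and the other was not called. In the 2 layers the preparations differed in temperature, enzyme and duration, and their part in these values and in the chemokine values above was not tested. After alignment on the hybridization controls 26 of the 43 were still called lower.

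Beyond the lists, the largest rises and falls among genes whose samples do not overlap add a few more. On the epithelial side stood the keratinocyte proline-rich protein Kprp at 13.53, 13.57 and 13.43 in epithelia, against 7.68, 5.56 and 5.18 in fibroblasts, Slurp2, a secreted ligand of acetylcholine receptors, with a difference of 7.27 (adjusted p = 8.51e-06), the lipid transfer protein Esyt3 with 7.11 (adjusted p = 1.51e-06), and the peptide transporter Slc15a1 with 6.92 (adjusted p = 2.48e-06). On the fibroblast side stood lipoprotein lipase (Lpl) at 3.87, 5.87 and 4.33 in epithelia, against 13.23, 13.11 and 12.86 in fibroblasts and the ferritin receptor Scara5 with -8.16 (adjusted p = 8.79e-06). Lpl and Fabp4 (log2 difference -7.85, adjusted p = 6.65e-05) also serve as fat cell markers, but the fat cell hormone Adipoq was at 6.35, 7.07 and 6.36 in epithelia, against 5.94, 6.27 and 6.55 in fibroblasts and did not pass (adjusted p = 0.266). Of 9 measured fat cell markers 4 were called lower in epithelia, all by at least 4-fold, and 2 higher. The array also holds probe sets that name no gene, and 6 of the 10 largest rises were of that kind, with the highest at a log2 difference of 8.66.

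The same layer difference was measured in diseased tongues, in samples that the normal comparison does not use. In dysplasia 24.5% of genes were called higher in epithelia and 25.6% lower, and in SCC 13.9% were higher and 19.5% lower. Of the 675 genes at least 4-fold higher in normal epithelia, 652 (96.6%) were called higher in dysplasia, where they make up 18.7% of the 3482 genes called higher, and 558 (82.7%) in SCC, where they make up 28.2% of 1976. Of the 1464 genes at least 4-fold lower in normal epithelia, 1422 (97.1%) were called lower in dysplasia, 39.1% of the 3640 genes called lower there, and 1180 (80.6%) in SCC, 42.6% of 2771. At most 5 of either set were called the other way. The differences were smaller in the lesions: the median of the 675 genes was 2.93 in normal tissue, 1.94 in dysplasia and 1.56 in SCC, and that of the 1464 genes -3.43, -2.67 and -2.11. Since the genes were chosen by their normal values, part of this decline is given by the choice.

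The change of the layer difference was also tested for each gene in 1 fit of all 18 arrays. That test uses the same normal arrays, so it does not remove the effect of choosing genes by their normal values. It differed between normal tissue and dysplasia for 691 genes (4.86%) and between normal tissue and SCC for 2650 genes (18.6%), and both tests share the normal samples. Rbp2 had a difference of 5.87 in normal tissue, 1.92 in dysplasia and 1.12 in SCC, and the change against dysplasia was 3.95 (adjusted p = 0.000189) and against SCC 4.75 (adjusted p = 6.19e-06). Fmo2 had differences of 4.90, 1.91 and -0.10 in that order of stage, with a change of 5.0 against SCC (adjusted p = 7.64e-05). The carrier Fgfbp1 had 3.76, 0.59 and 0.04. On the fibroblast side, Ccl2 had -8.11, -3.31 and -2.29, with changes of -4.80 (adjusted p = 0.000189) against dysplasia and -5.82 (adjusted p = 6.19e-06) against SCC. Lumican had -8.52, -5.11 and -2.53, and its difference in SCC was not called (adjusted p = 0.125). Its change was -3.41 (adjusted p = 0.262) against dysplasia and -6.00 (adjusted p = 0.0257) against SCC. Corneodesmosin kept a large difference at each stage, 6.99, 5.06 and 5.87, and its change against SCC was 1.12 (adjusted p = 0.364). IL-1β (Il1b) had -6.45, -5.20 and -3.54, with a change of -1.25 (adjusted p = 0.355) against dysplasia and -2.91 (adjusted p = 0.0164) against SCC.

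**Figure D5:**
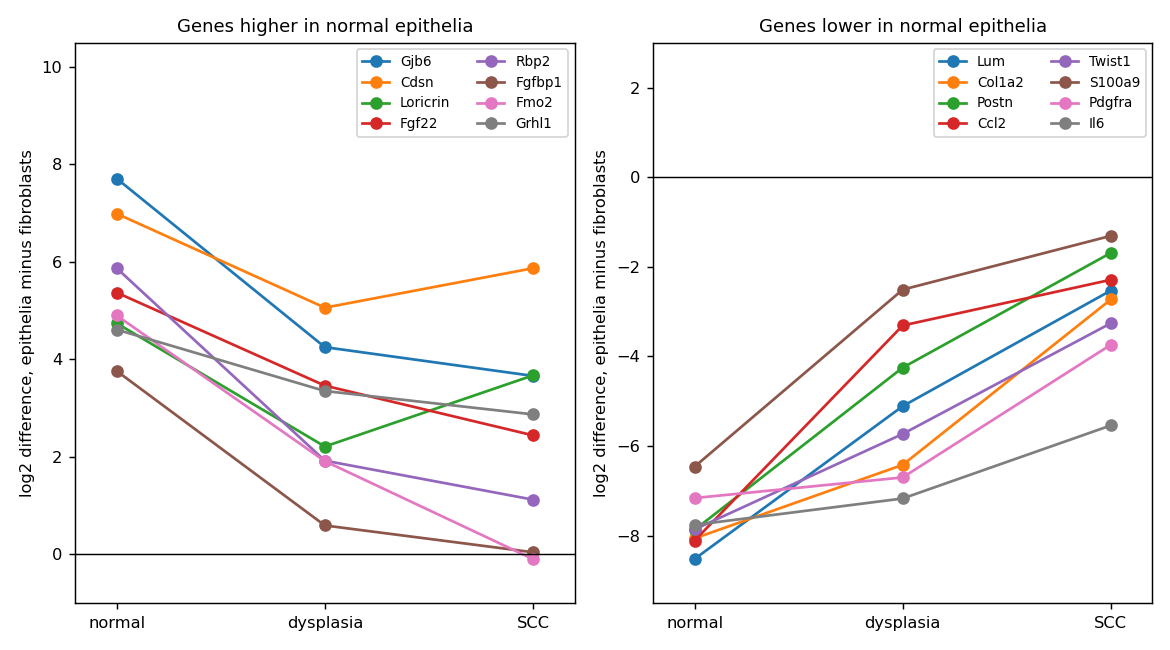
Log2 difference between epithelia and fibroblasts (3 samples each) in normal tissue, dysplasia and SCC for 8 genes higher and 8 genes lower in normal epithelia; each line is 1 gene, and no error is drawn. Most lines come closer to 0 toward SCC, Rbp2 from 5.87 to 1.12 and Lum from -8.52 to -2.53, while Cdsn stays at 5.06 or above. Differences are drawn whether or not they were called, and that of Lum was not called in SCC.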

How the data were processed

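RNA of 18 samples was measured on Affymetrix rat genome arrays, and 6 arrays (3 epithelia, 3 fibroblasts, all normal) made up the comparison. The intensity values were used as deposited by the authors: linear probe set signals whose lowest value is 1, made with RMA in Expression Console by what the processing notes list, with no version, setting or detection call. Of 31099 probe sets 57 controls were left out. Annotation named 1 gene for 20826 probe sets, several for 436 and none for 9780, and each gene was represented by its probe set of highest mean signal. Where another probe set of a named gene was not in accord, meaning not called in the same direction, the text says so.

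The log2 signals were fitted with limma 3.58.1 in R 4.3.3 (lmFit and eBayes), with Benjamini-Hochberg adjustment over 31042 probe sets. With 3 samples on each side an exact permutation test could reach no p below 0.10, and none was run. The code was tested on simulated data. The members and the 49 gene lists were chosen with earlier results of these data known. Named genes were the 10 largest rises and falls without overlap, up to 6 called members of each list in each direction, and any transcription factor, signalling or marker gene. Directions and ranks refer to the brightest probe set of each gene. Ivl, Loricrin, Sprr1b, Sprr3, Scel, Tgm1, Ocln, Col17a1, Lamb3, Mmp12, S100a3, Fos and, in the plot of signals by sample only, Lamb2 fell outside this rule and were picked once their values were known. Precision is limited by the number of arrays and by the mixed cell makeup of the samples, and nothing states that the pools of a group share no animals. Promoter sequences were taken from RefSeq (GRCr8), which had one for 11733 of the 14217 genes.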

Additional observations from a re-analysis of the deposited data

Results flagged for a closer look

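The layer difference itself differed between stages, by a test of that difference in limma over all 18 arrays, for 691 genes between normal tissue and dysplasia and for 2650 genes between normal tissue and SCC. Among list genes with a difference of at least 4-fold in normal tissue, those with the largest tested changes were these, each given as the normal layer difference minus that of the lesion. Against dysplasia, the chemokine Ccl2 changed by -4.80, the neutrophil gene S100a9 by -3.95 and the glutathione transferase Gsta1 by -3.78, all through a smaller gap in dysplasia. Rbp2 changed by 3.95 and the cystatin Stfa3 by 3.58, also through a smaller gap, although the other probe set of Stfa3 was not called in normal tissue. The mast cell protease Mcpt10 changed by 4.52 through a wider gap in dysplasia, with log2 differences of -2.47 in normal tissue and -6.99 in dysplasia. Against SCC, Postn changed by -6.19, Lum by -6.00 and Ccl2 by -5.82, and on the epithelial side Fmo2 by 5.0, Rbp2 by 4.75 and the keratin Krt71 by 4.23. These genes were picked as extremes of the test, and the part that cell makeup or sample preparation plays in the changes was not tested. No group here holds 4 or more samples, so single samples were not tested as outliers.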

How the results depend on the processing

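The count of 18763 called probe sets ran from 15678 to 20057 when 1 array was left out, and that of 3861 calls of at least 4-fold from 3752 to 3984. Without probe sets that were dim in all samples 12219 of 16969 were called, with 1 probe set for each gene 9085 were called and 2135 passed 4-fold (both settings test fewer probe sets), and a cut at 2-fold with an unadjusted limma p (the methods name 2-fold or a lower fold, with a p they call a detection p) gave 9369. Alignment on the hybridization controls gave 21751 calls, 83.9% of them higher, against 56.1% with the deposited scaling. Same-numbered samples correlated at 0.122, -0.0438 and -0.0382 in their deviations from the group means and were not treated as pairs; with the replicate number as a block 17610 probe sets were called. The methods' t-test, which they name for data in general and not for the arrays, gave 16430 calls after Benjamini-Hochberg adjustment. With fibroblasts 3 as the lone fibroblast sample, whose spread was then taken from the epithelia, 16642 were called, a setting added after seeing the data.

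Genes without a call in all 6 samples changed sign. Array weights gave -0.15 for Krt5, -0.11 for Krt15 and -0.02 for Fgfr2 and Col17a1. Klf4 was at -0.03 after quantile normalization and with fibroblasts 3 alone, where Amy1 was at 0.17. When 1 array was left out, Krt5 ran from -0.23 to 0.35, Krt15 from -0.49 to 0.51, Fgfr2 from -0.08 to 0.69, Cd3e from -0.04 to 0.21, Col17a1 from -0.18 to 1.03, Axin2 from -0.02 to 0.55 and Klf4 from -0.03 to 0.07. The lowest of these for Krt5, Krt15, Fgfr2 and Col17a1 came without fibroblasts 3. The cause was not tested. Of the named genes with a call, 7 lost it when 1 array was left out: Krt4, Krt13, Krt14, Lama3, Cdh1 and Dsp without any 1 of the epithelia, and Bmp7 without epithelia 1 or 2. Fgf10 lost its call after alignment on the hybridization controls, at -0.63. Calls of named genes were also lost with the methods' t-test (10 genes), quantile normalization (4), eBayes with trend and robust (4), the cut at 2-fold (4), the replicate block (1), 1 probe set for each gene (1) and fibroblasts 3 alone (1).

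With no detection calls, folds against signals near the lowest of the array cannot be read as ratios of RNA. Pools of 3 rats hide the spread between animals, and layer and preparation cannot be told apart.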
